A study of Mus musculus with 21 samples.

Results

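The BCL2 family decides whether the outer mitochondrial membrane stays intact, and 9 of its genes were examined here for contact with p53, the transcription factor encoded by Trp53. The 9 genes were listed by name, with earlier results of these data known, among 49980 mouse genes with a chromosome in RefSeq. Of these, 6 promote cell death (Bax, Bak1, Bbc3, Pmaip1, Bid and Bcl2l11) and 3 promote survival (Bcl2, Bcl2l1 and Mcl1). A peak was counted for a gene where the deposited annotation names the gene, or where the peak lies within 5 kb of the gene's RefSeq span. Counts at these genes are set beside those at all RefSeq genes, at protein-coding genes, at 14 other BCL2 family genes, and at 10 genes that act downstream in mitochondrial apoptosis.

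The cells were ID8, an immortalized epithelial line from the ovarian surface of C57BL/6 mice, left untreated. The 2 groups were wild type (WT, Trp53+/+) and knockout (KO, Trp53-/-), each with 2 samples processed by CUT&RUN with a p53 antibody. In CUT&RUN an antibody directs a nuclease to the protein's sites in permeabilised cells, and the freed DNA is sequenced. The labels do not say whether the KO line is 1 clone. The KO list shows where the same antibody gave peaks in the knockout cells, and the origin of these peaks was not tested. The knockout itself is taken from the labels because peak lists hold no level of p53.

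The deposited lists held 6811 WT peaks, 9784 KO peaks and 2127 peaks that the authors list as WT-specific. Each list is 1 set of intervals per genotype, so no value here has a replicate behind it and no test across samples was possible. No height, score or read depth comes with a peak. A gene without a peak is therefore one with no listed interval, which does not show that p53 was absent, and more cells with contact cannot be told apart from more contact per cell.

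As background, BCL2 proteins fall into 3 functional classes. BAX and BAK, encoded by Bax and Bak1, form the pores that release cytochrome c. The survival proteins BCL2, BCL-XL (from Bcl2l1) and MCL1 hold them in check, and BH3-only proteins, namely PUMA (Bbc3), NOXA (Pmaip1), BIM (Bcl2l11) and BID, relieve that check or activate the pore formers. Bax, Bbc3 and Pmaip1 are textbook p53 target genes, through which p53 can drive apoptosis after DNA damage.

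The WT-specific peaks lay at 4 of the 9 genes, and the KO peaks lay only at the survival genes among the 9. Bax, Bbc3 and Bcl2l11 had 1 WT-specific peak each, and Bcl2l1 had 3, which makes 6 peaks. By class, 3 of 6 pro-death genes and 1 of 3 pro-survival genes had one. A WT-specific peak was found at 3.37% of all RefSeq genes and at 5.04% of protein-coding genes under the same rule. KO peaks were found at 0 of 6 pro-death genes and at 3 of 3 pro-survival genes, where 11.4% of all genes and 16.0% of protein-coding genes had one. With shares of that size, a count of 0 among 6 genes is near the background and says nothing particular to them. Within 50 kb, 2 of the 6 pro-death genes, Bbc3 and Bcl2l11, also had a KO peak. The share of all genes at that width is not given here, so this count has no background beside it. A peak of the full WT list was found at 6 of the 9 genes (3 pro-death and 3 pro-survival), against 9.05% of all genes and 13.0% of protein-coding genes.

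**Figure D1:**
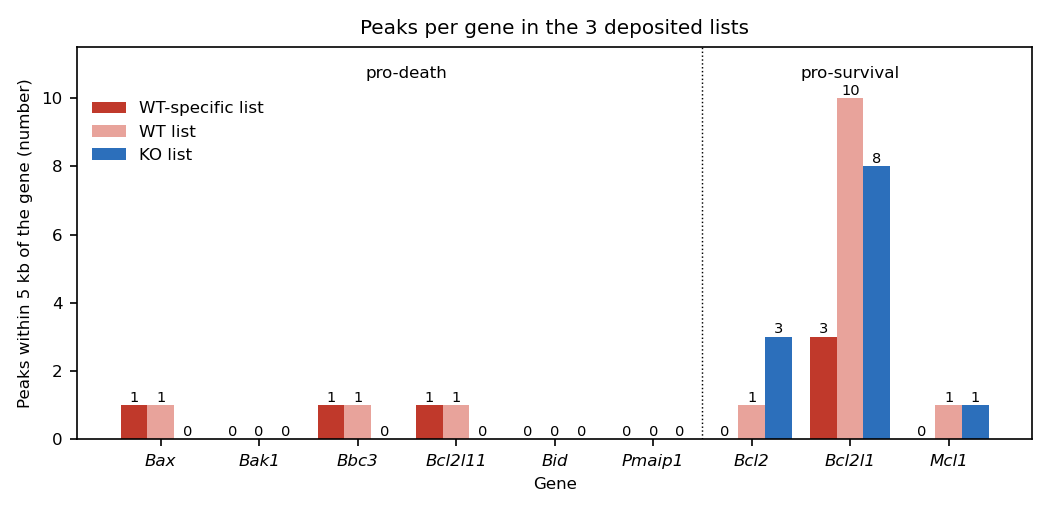
Number of peaks within 5 kb of each gene (vertical axis) in the WT-specific, WT and KO lists, for 6 pro-death and 3 pro-survival genes; each bar is a count from 1 list per genotype, with no error. The pro-death genes have 1 WT peak or none and no KO peak, while Bcl2l1 has 10 WT and 8 KO peaks.

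With so few genes in each class, no difference between the classes was tested. Bax, Bbc3 and Bcl2l11 had a WT-specific peak and no KO peak, a combination found at 2.37% of all genes. Bcl2 and Mcl1 had a KO peak and no WT-specific peak, as did 10.4% of all genes. Bcl2l1 had peaks of every kind. Among the 3347 protein-coding genes at least as long as Bcl2l1, 13.0% had a WT-specific peak and 35.2% had a KO peak. Bcl2l1 (75.1 kb) and Bcl2 (176 kb) are in that length range, and Mcl1 (6.24 kb) is not. The part of gene length in these counts was not tested.

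**Figure D2:**
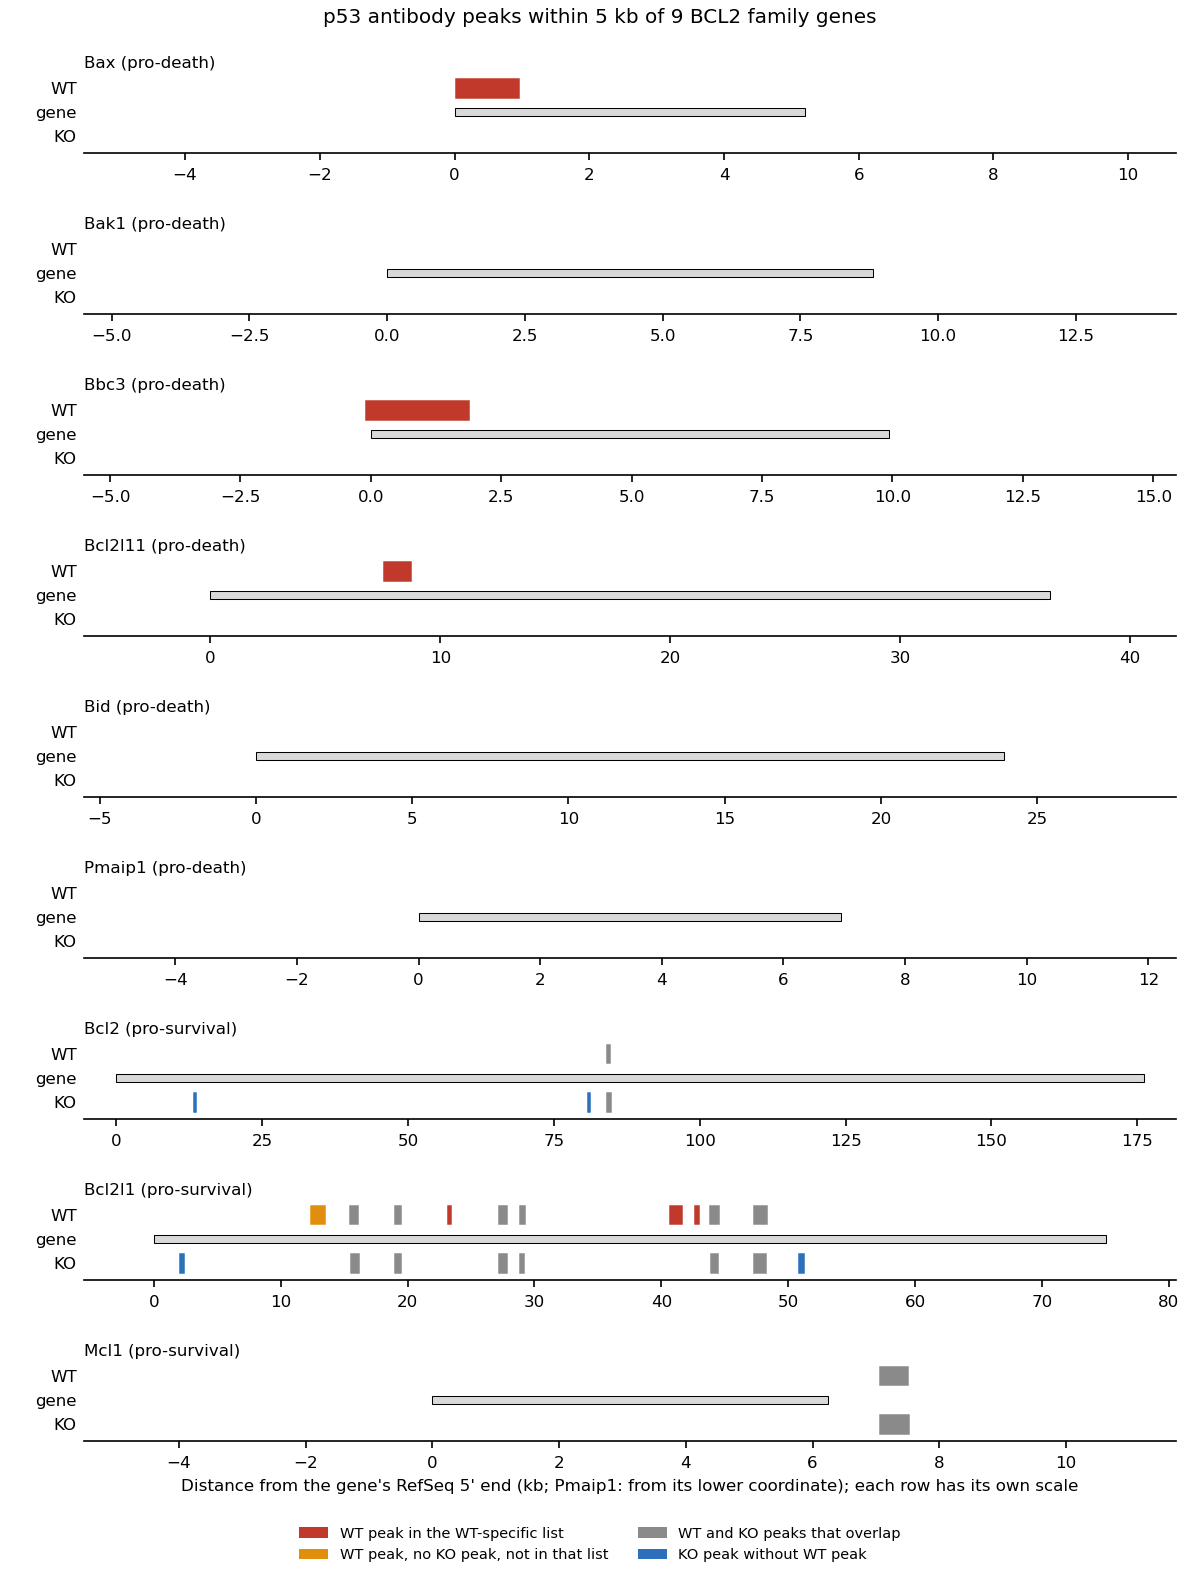
Position of each WT and KO peak against each gene, in kb from the gene's RefSeq 5′ end and to scale within a row, with thin outlines that keep short peaks visible; rows differ in scale. Red marks the WT-specific peaks, at the start of Bax and Bbc3 and inside Bcl2l11 and Bcl2l1, and blue marks KO peaks without a WT peak, at Bcl2 and Bcl2l1.

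Bbc3 encodes PUMA, the BH3-only protein most closely tied to p53. Its WT-specific peak was the longest of the 6 at 1957 bp (chr7:16308310-16310266), ranked 14 of 2127, with 99.3% of WT-specific peaks shorter. The deposited annotation calls it a promoter peak, and among 324 promoter peaks its rank was 6. The gene (RefSeq 170770, plus strand) spans positions 16308398 to 16318334 of chromosome 7. The peak started 88 bp before that span and covered 2 of the 3 gene starts listed by RefSeq, at 16309583 and 16310261. It ended short of the other, at 16310431. The nearest KO peak lay 12286 bp from the WT-specific peak and was 417 bp long.

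The 250 bases before the first of these starts lie wholly inside the peak. They are shown because they hold the best unbroken 20-base match to a p53 site among the 13 promoter windows at hand. These windows belong to 8 of the 9 genes, and Pmaip1 has none. p53 binds as a tetramer to a pair of 10-base half-sites, which together make a 20-base full site. Only half-sites with no bases between them were scored for mismatches. The capitals mark the 20 bases closest to the p53 full-site consensus, at chr7:16309486-16309505, with its first base 97 bp before the start. The sequence is from RefSeq on GRCm38.p6, plus strand, chr7:16309333-16309582.
Bbc3: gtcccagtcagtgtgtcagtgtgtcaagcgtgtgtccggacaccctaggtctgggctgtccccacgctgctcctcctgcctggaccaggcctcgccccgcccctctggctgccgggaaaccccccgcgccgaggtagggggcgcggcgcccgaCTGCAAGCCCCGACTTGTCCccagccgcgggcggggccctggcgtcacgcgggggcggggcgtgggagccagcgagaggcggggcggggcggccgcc

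Those 20 bases differ from the consensus at 3 positions. A full site with at most 3 mismatches and the CNNG core in each 10-base part was in 453 of 32851 promoter windows of 300 bases, 1.38%. Of the 163 windows that a WT-specific peak overlaps, 29 held one, 17.8%, against 1.30% of the others. A match describes letters and does not show that p53 bound there.

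Bax encodes a pore-forming effector of apoptosis. Its WT-specific peak was 914 bp long (chr7:45465964-45466877), longer than 90.0% of the list, and the annotation again gives the promoter class. The gene (RefSeq 12028, minus strand) spans positions 45461695 to 45466903 of the same chromosome, and RefSeq places its start at 45466898. The peak ran from 21 to 934 bp downstream of that start, so the listed interval lay inside the gene. The nearest KO peak was 101301 bp away. No KO interval was therefore listed anywhere near this peak.

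The 250 bases before the Bax start are shown because they border the peak without being in it. They also hold the only exact 10-base p53 consensus match in the 13 windows at hand. The capitals mark that match, at chr7:45467090-45467099, 212 bp outside the peak. The sequence is from RefSeq on GRCm38.p6, minus strand, chr7:45466899-45467148.
Bax: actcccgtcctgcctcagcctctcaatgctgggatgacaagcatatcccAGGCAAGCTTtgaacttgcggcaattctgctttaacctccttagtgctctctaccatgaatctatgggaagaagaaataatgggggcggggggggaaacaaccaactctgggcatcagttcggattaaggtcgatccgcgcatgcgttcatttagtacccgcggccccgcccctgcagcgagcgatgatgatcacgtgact

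An exact match of this kind was in 8.36% of all windows and in 20.2% of the windows that a WT-specific peak overlaps. Among full-length matches with no bases between the half-sites, the best in the Bax window had 7 mismatches. That level is reached by 39.5% of all windows. Inexact half-sites that lie apart were not scored, so a closer spaced match in this window is not excluded. The bases under the Bax peak beyond the first 29 that the window shares with it were not analysed here.

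Bcl2l11 encodes BIM, a BH3-only protein that binds all the main survival proteins. It had the second longest peak of the 6, 1122 bp at chr2:128133584-128134705, longer than 95.0% of the list. The annotation places this peak in an intron, and it ranked 19 of 673 intron peaks by length. The gene (RefSeq 12125, plus strand) spans positions 128126038 to 128162547. The midpoint of the peak lay 8.11 kb past the first listed start and 6.57 kb past the other. Neither promoter window of Bcl2l11 overlapped a WT-specific or a KO peak, which separates it from Bax and Bbc3. The nearest KO peak was 45401 bp from the WT-specific peak.

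The other 3 pro-death genes had no peak in any list within 5 kb. Pmaip1, which encodes the BH3-only protein NOXA, was the farthest from one: its nearest WT-specific peak lay 787 kb away and its nearest peak of the full WT list 658 kb away, on chromosome 18. Bak1, the gene of the other pore former, had its nearest WT-specific peak at 114 kb. Bid, whose protein links death receptors to mitochondria, had its nearest at 83.0 kb. The WT-specific peaks nearest to Bak1 and Bid were also the nearest of the full WT list, so p53 antibody peaks of either genotype were far from both genes. The nearest KO peaks were at 214 kb for Bak1, 128 kb for Bid and 658 kb for Pmaip1.

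Bcl2l1 encodes BCL-XL, a survival protein (with a shorter pro-death splice form), and had by far the most peaks of the 9 genes. The gene (RefSeq 12048, minus strand) spans positions 152758732 to 152833803 of chromosome 2. The WT list had 10 peaks in it and the KO list 8. Only 2 of the 49980 RefSeq genes had more WT peaks within 5 kb, and 41 had more KO peaks. Per length, with the 5 kb flanks included, Bcl2l1 had 11.8 WT peaks per 100 kb. None of the 3347 protein-coding genes at least as long had a higher WT density, and 2 had a higher KO density than its 9.40 peaks per 100 kb. The gene was thus dense in peaks of both genotypes. Its 3 WT-specific peaks, known when the genes were chosen, are among the 10, so the WT ranks are given for scale only. The set of long genes also begins at the length of Bcl2l1 itself, so no gene in it is shorter.

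Its 3 WT-specific peaks were intronic by the annotation and lay far from the gene starts. The longest, 908 bp at chr2:152792238-152793145, was longer than 89.8% of WT-specific peaks. It was followed on the chromosome's lower side, after a gap of 1086 bp, by a peak of 219 bp at chr2:152790933-152791151. The third, 198 bp at chr2:152810450-152810647, was among the shortest of the list, with 3.20% of WT-specific peaks shorter. Their midpoints were 35.8, 37.4 and 17.9 kb downstream of the nearest of 3 listed starts, in the same order. At least 3 WT-specific peaks within 5 kb were found at 26 of 49980 genes, 0.0520%. That Bcl2l1 has 3 was known when the genes were chosen, so the share is given for scale only.

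**Figure D3:**
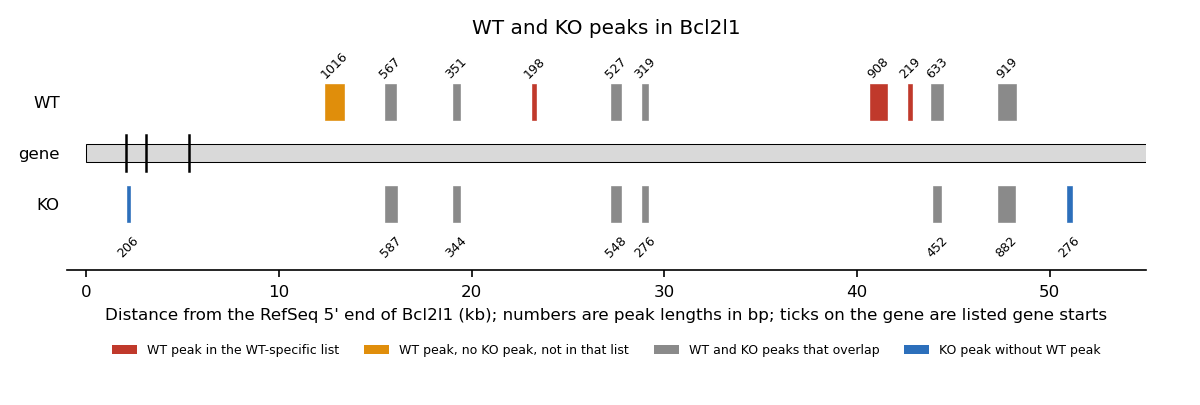
WT peaks (above) and KO peaks (below) along Bcl2l1, in kb from its RefSeq 5′ end, to scale, with the length of each peak in bp; the 3′ part of the gene beyond the axis holds no peak. The 6 grey pairs sit at matching positions, the 3 red WT-specific peaks lie between them, and the orange WT peak of 1016 bp faces no KO peak.

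The remaining 7 WT peaks of Bcl2l1 differed in whether a KO peak met them. A KO peak overlapped 6 of them, and the bases in common made up 71.4% to 99.4% of the WT peak. Of all 10 WT peaks in the gene, 6 were thus overlapped, near the share of 59.4% among all WT peaks. The widest was 919 bp in WT cells (chr2:152785563-152786481) and 882 bp in KO cells, with 868 bp in common. The others measured 633, 319, 527, 351 and 567 bp in WT cells, and 452, 276, 548, 344 and 587 bp in KO cells, from lower to higher position. The WT interval was the longer in 4 of the 6 pairs.

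The tenth WT peak, 1016 bp at chr2:152820418-152821433, had no KO peak within 2138 bp and yet is not in the WT-specific list. It was the longest WT peak in Bcl2l1, longer than each of the 3 WT-specific ones. Among the 2768 WT peaks that no KO peak overlaps, 712 are absent from the WT-specific list, with a median length of 225 bp. The Bcl2l1 peak was the longest of those 712. Neither labels nor headers state the rule that made the WT-specific list, and why this peak is missing from it was not tested. With this peak, Bcl2l1 had 4 WT peaks that no KO peak overlaps.

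Bcl2l1 also had 2 KO peaks, of its 8, that no WT peak overlaps. The share of all KO peaks without a WT peak is not given here, so this count has no background beside it. One of 206 bp, chr2:152831515-152831720, lay 8 to 213 bp downstream of the outermost listed start at 152831728. It is the only peak of any list that touches a promoter window of a survival gene among the 3. The other, 276 bp at chr2:152782643-152782918, was the most distal peak. Beyond it the last 23.9 kb of the gene held no peak of either genotype. All 10 WT peaks fell within 35.9 kb, from position 152785563 to 152821433.

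Bcl2, the founding survival gene, had no WT peak that was free of a KO peak. The gene (RefSeq 12043, minus strand) spans positions 106538176 to 106714290 of chromosome 1. Its 1 WT peak, 420 bp at chr1:106629754-106630173, lay wholly inside a KO peak of 538 bp. The KO list had 2 further peaks in the gene, of 184 and 197 bp, which no WT peak overlaps. These are 2 of its 3 KO peaks, and again the share among all KO peaks is not given here. The shared peak was 84.3 kb from the gene start, and the nearest WT-specific peak was 479 kb from the gene.

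Mcl1 encodes a short-lived survival protein, and its peak was likewise present in both genotypes. The gene (RefSeq 17210, plus strand) spans positions 95656944 to 95663179 of chromosome 3. A WT peak of 427 bp (chr3:95664007-95664433) and a KO peak of 451 bp began at the same base, 827 bp past the end of the gene. The nearest WT-specific peak was 240 kb away. At Bcl2 and Mcl1 alike, each WT peak thus had a KO counterpart.

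Over the 9 genes, a KO peak overlapped 8 of 15 WT peaks, against 59.4% of all 6811. Those 8 were among the 12 WT peaks at Bcl2, Bcl2l1 and Mcl1. The pro-death genes had only 3 WT peaks, each of them also in the WT-specific list. That none of these 3 met a KO peak therefore says little about the class. The WT interval was longer in 4 of the 8 pairs and the KO interval in the other 4. The shared bases made up at least 71.4% of the WT peak and at least 78.1% of the KO peak in each pair. None of the 6 WT-specific peaks was overlapped by a KO peak, where 71 of the whole list of 2127 were.

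The 3 pro-death WT-specific peaks were all longer than the list's median of 454 bp, while 1 of the 3 at Bcl2l1 was. The median was 1122 bp for the pro-death peaks, 219 bp for those at Bcl2l1 and 911 bp over all 6. With the 1016 bp peak that the list leaves out, the median at Bcl2l1 was 563.5 bp, and 2 of its 4 peaks without a KO peak were longer than 454 bp. Promoter peaks in the list had a median of 483 bp and intron peaks one of 439 bp. The part of class in the lengths at these genes was not tested. Length is a property of the called interval and not a measure of p53 binding strength.

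**Figure D4:**
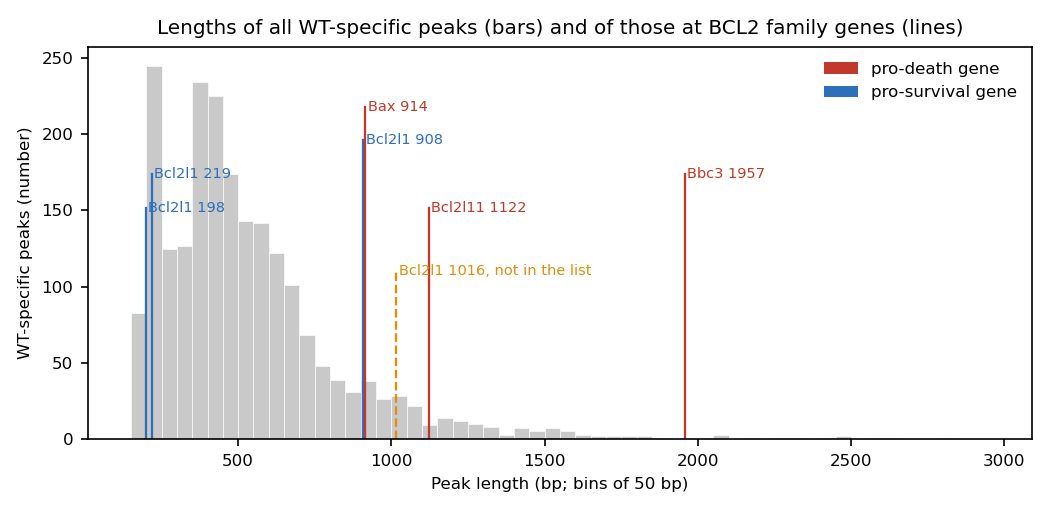
Histogram of the lengths of all 2127 WT-specific peaks (number of peaks per 50 bp bin) with vertical lines at the 6 peaks of the BCL2 family genes and a dashed line at the WT peak of Bcl2l1 that the list leaves out; line heights have no meaning. Bbc3, Bcl2l11 and Bax lie in the long tail, with 908 bp of Bcl2l1 beside Bax. The left-out Bcl2l1 peak of 1016 bp lies between Bax and Bcl2l11, and the WT-specific Bcl2l1 peaks of 219 and 198 bp are at the short end.

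In the WT-specific list as a whole, retroviral long terminal repeats (LTRs) are frequent, with 46.8% of peaks on one. None of the 6 peaks at BCL2 family genes was on an LTR. Of the whole list 47.2% is intergenic, while the 6 are 2 promoter and 4 intron peaks, and LTR shares by class are not given here. Repeats of other kinds were in 4 of the 6, against a share of 67.9% of the list with any repeat, but each covered a small part. The Bbc3 peak held a B1F element, a SINE (short interspersed element), of 101 bp, 5.16% of its length. The Bcl2l11 peak held a simple GA repeat of 63 bp, 5.61%. In Bcl2l1 the 908 bp peak held a MIR3 SINE of 84 bp, 9.25%, and the 198 bp peak a MIRb SINE of 59 bp, 29.8%. The Bax peak and the 219 bp peak of Bcl2l1 held no listed repeat. No listed repeat covered the midpoint of its peak. The part of a peak that repeats cover, and the share with a covered midpoint, are not given here for the whole list.

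None of the 6 WT-specific peaks lay within 5 kb of another RefSeq gene. Each was also labelled by the annotation with the gene in whose span it falls. A pseudogene, Gm32211, lies inside Bcl2l1 within 5 kb of 2 of the peaks that WT and KO share.

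RefSeq promoter windows, from 250 bases before to 50 after a start, were at hand for 8 of the 9 genes, 13 windows in all. The best 20 bases of each gene are set out, with no bases allowed between the half-sites. They show how far the survival genes and the pro-death genes without a peak are from this unspaced consensus. Capitals mark bases that match it, on the gene's strand of GRCm38.p6, and the core of each 10-base part had to read CNNG.
Bbc3 (chr7:16309486-16309505, 3 mismatches): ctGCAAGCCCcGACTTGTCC
Bcl2l1 (chr2:152828573-152828592, 4 mismatches): GAcCTTGgaCAGGCTgGTTT
Bcl2l11 (chr2:128125803-128125822, 5 mismatches): AcACTAGggTAAACAcGCCg
Mcl1 (chr3:95658540-95658559, 6 mismatches): GcACTTGgCCAGcCggGCTg
Bax (chr7:45467095-45467114, 7 mismatches): tGACAAGCaTAtcCcAGgCa
Bak1 (chr17:27028702-27028721, 7 mismatches): ttcCAAGCCCGGcCgAGgaC
Bcl2 (chr1:106714510-106714529, 7 mismatches): GGcCgcGgCCGGGCgcGCgC
Bid (chr6:120916967-120916986, 8 mismatches): ActCTgGggaGcGCAgGTTC

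Only the Bbc3 site lay in a WT-specific peak. The Bcl2l1 site, with 4 mismatches, was 17925 bp from the nearest WT-specific peak, and 4.80% of all windows hold one as close. Windows with 5 mismatches or fewer, as in Bcl2l11, made up 12.4%. From 6 mismatches on, at Mcl1 (24.8% of windows), at Bax, Bak1 and Bcl2 (39.5%) and at Bid (52.6%), such a match is common. These shares, and the 1.38% at 3 mismatches, are per window, while each gene is shown by its best window. Bbc3 and Bcl2l1 have 3 windows each and Bcl2l11 has 2, so a low count comes more easily there. A pair of exact 10-base matches 0 to 13 bases apart was in none of the 13 windows and in 0.0731% of all windows. The order of genes by this unspaced promoter match did not follow the order by peak. The peaks of Bax and Bcl2l11 lie largely or wholly outside these windows.

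**Figure D5:**
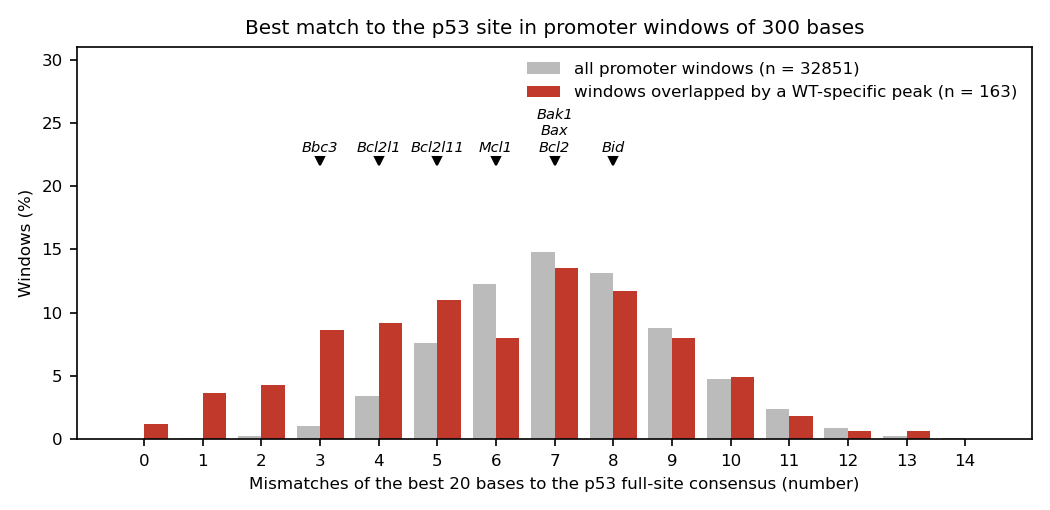
Share of promoter windows (%) by the number of mismatches between their best 20 bases and the p53 full-site consensus, for all 32851 windows (grey) and the 163 that a WT-specific peak overlaps (red); windows without the CNNG cores are not drawn, and markers show the best window of each gene. With no bases allowed between half-sites, Bbc3, at 3 mismatches, lies where red bars exceed grey ones, and Bax, at 7, does not. Bcl2l1, at 4, and Bcl2l11, at 5, also lie where red exceeds grey, though no WT-specific peak overlaps their windows.

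The 14 other BCL2 family genes (Bcl2l2, Bcl2a1a, Bcl2a1b, Bcl2a1d, Bcl2l10, Bok, Bad, Bik, Bmf, Hrk, Bcl2l12, Bcl2l13, Bcl2l14 and Bcl2l15) had no WT-specific peak. Such a peak was at 3.37% of all RefSeq genes and 5.04% of protein-coding genes, so a count of 0 is near the background. WT peaks were found at 3 of the 14 genes and KO peaks at 3, against 13.0% and 16.0% of protein-coding genes. Bmf, a BH3-only gene, had 2 WT peaks of 519 and 293 bp, each overlapped by a KO peak. Bcl2l14 had 1 WT peak of 343 bp, also shared, and 1 more KO peak of 253 bp. Bok, a relative of Bax and Bak1, had a WT peak of 195 bp at 4989 bp from the gene, overlapped by a KO peak that lies just outside the 5 kb, at 5004 bp. Bcl2l2, which encodes the survival protein BCL-W, had 2 KO peaks of 361 and 247 bp and no WT peak. Every WT peak at these genes was thus overlapped by a KO peak, as were 59.4% of all WT peaks.

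The 10 downstream genes (Apaf1, Casp9, Cycs, Diablo, Htra2, Xiap, Endog, Aifm1, Vdac1 and Vdac2) likewise had no WT-specific peak. Here too a count of 0 is near the background, 5.04% of protein-coding genes. Cycs, which encodes cytochrome c, had a WT peak of 327 bp at its start inside a KO peak of 391 bp. Vdac2, a channel gene of the outer mitochondrial membrane, had a WT peak of 222 bp inside a KO peak of 563 bp, 380 bp outside the gene. Aifm1, the gene of apoptosis-inducing factor, had only a KO peak, of 413 bp. The WT-specific peaks over all 3 sets of genes were thus at Bax, Bbc3, Bcl2l11 and Bcl2l1.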

How the data were processed

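The data were p53 CUT&RUN peak lists from 2 WT and 2 KO samples of ID8 cells, with 1 list per genotype. The files deposited by the authors give chromosome, start and end on mm10 and, for the WT-specific list, a feature class with a gene name and the overlapping repeats. They hold no score or height. Of tools, MACS2, Bowtie2, deepTools and fastp appear in the submitters' processing notes. No label or header gives their settings, the pooling of samples or the WT-specific rule. Of 21 samples, the histone and IgG samples were not analysed here.

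Starts were read as 0-based and are printed 1-based. Peaks were overlapped with bedtools 2.31.1 (at least 1 bp) and assigned to RefSeq genes of GRCm38.p6, the assembly behind mm10, with Python 3.11.15, numpy 2.4.6 and pandas 2.3.3. Distances run from the gene span, or from the peak where stated. Of 997 gene names in the annotation, 758 matched a RefSeq gene. The counting and motif functions were tested on simulated data. Values are given for all 9 genes and, from the other sets, for those with a peak within 5 kb. Part of the list first fixed for the downstream genes is not reported here. The genes and lists were chosen with earlier results of these data known. The count of mismatches to the full site was added after the data were seen, and it allowed no bases between the half-sites. Peak sequences outside the RefSeq promoter windows were not used here.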

Additional observations from a re-analysis of the deposited data

How the results depend on the processing

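The number of genes with a WT-specific peak stayed at 4 of 9 (3 pro-death, 1 pro-survival) with 0, 1, 10 or 50 kb around the gene, with the deposited gene name alone, with all WT peaks that no KO peak overlaps, and with the longer 50% of the WT-specific list. Widening to 50 kb changed the KO counts: 5 of 9 genes then had a KO peak, among them 2 of 6 pro-death genes, Bbc3 and Bcl2l11, where 0 had one within 5 kb. Shares of all genes at widths other than 5 kb are not given here, so these counts have no background beside them. Repeats were in 4 of the 6 WT-specific peaks at any overlap. The count was 0 where a repeat had to cover 50% of the peak, and 0 where it had to cover the midpoint. Shares of the whole list under those stricter rules are not given here. With all WT peaks that no KO peak overlaps, the median length at Bcl2l1 was 563.5 bp in place of 219 bp. Of 51 alternative values for 12 results, the other 46 kept the reported reading, among them 2 genes with a KO peak in place of 3 at 0 kb, where Mcl1 drops out. The split of KO counts by class at 0, 1, 10 and 50 kb, and the use of all WT peaks that no KO peak overlaps for the number of peaks (7 in place of 6) and for the median lengths, were chosen after seeing the data. No paired analysis was possible because each genotype has 1 peak list for its 2 samples. For the same reason leaving out a sample was not possible, and with no read depth a detection limit is not given.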
